A study of Mus musculus with 2 samples.

Results

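The genes described here encode the proteins of the cytosolic ribosome. They were taken as the protein-coding genes with an Rpl or Rps symbol followed by a number and at most 1 of the letters a, x or y, together with Rplp0, Rplp1, Rplp2 and Rpsa, in the GENCODE M21 annotation. This gave 76 of 21911 protein-coding genes, 46 for the large and 30 for the small subunit, spread over 19 chromosomes with 14 of them on chromosome 7 and 4 on chromosome X. Chromatin accessibility had been measured by DNase-seq, in which the enzyme DNase I cuts open DNA and the cuts are sequenced, in the left cerebral cortex of 14-day-old male B6CASTF1/J mice. These animals are the first-generation hybrids of C57BL/6J and CAST/EiJ parents, with no treatment or engineered allele named in the labels. The single group held 2 libraries, replicate 1 labelled as a pool of 3 males and replicate 2 as 1 male. Both labels carry the same donor identifier, so the spread between the libraries may not be a spread between animals. No comparison between conditions was possible, and values are given for each library and as mean ± SD over the 2 libraries, without tests.

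A ribosome is built from a small subunit, which reads the messenger RNA, and a large subunit, which joins amino acids and carries a stalk that recruits translation factors. Its protein genes are transcribed in nearly all cells, and their messenger RNAs typically begin with a cytosine followed by a run of pyrimidines (C or T), the 5' terminal oligopyrimidine sequence through which growth signals control translation. Many of these genes carry small nucleolar RNAs in their introns, and reverse-transcribed copies of their messenger RNAs have left numerous pseudogenes in mammalian genomes.

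Sequence around the annotated start is shown first for 7 of the 8 members with the highest promoter signal, since they show which short words and pyrimidine runs the most accessible promoters held. Each stretch runs from 100 bp before the principal transcription start to the 50th transcribed base, 5' to 3' along the gene, in the mm10 (GRCm38) reference, which is that of C57BL/6J and not of the hybrid. The stretches are Rplp0 at chr5:115559367-115559516 on the forward strand, Rpl7a at chr2:26910664-26910813 on the forward strand, Rpl23 at chr11:97782388-97782537 on the reverse strand, Rps12 at chr10:23787226-23787375 on the reverse strand, Rpl9 at chr5:65391395-65391544 on the reverse strand, Rps2 at chr17:24720010-24720159 on the forward strand, Rpl18 at chr7:45717971-45718120 on the forward strand. Capitals mark matches, on either strand, to any of 10 short words described with the promoter sequences, and any pyrimidine run of 8 or more bases within 15 bp of the start.
Rplp0: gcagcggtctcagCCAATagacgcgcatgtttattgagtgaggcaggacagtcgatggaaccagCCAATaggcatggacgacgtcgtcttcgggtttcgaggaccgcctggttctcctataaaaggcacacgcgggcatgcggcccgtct
Rpl7a: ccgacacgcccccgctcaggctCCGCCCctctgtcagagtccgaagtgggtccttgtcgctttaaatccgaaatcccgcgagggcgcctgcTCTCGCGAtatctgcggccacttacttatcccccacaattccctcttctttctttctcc
Rpl23: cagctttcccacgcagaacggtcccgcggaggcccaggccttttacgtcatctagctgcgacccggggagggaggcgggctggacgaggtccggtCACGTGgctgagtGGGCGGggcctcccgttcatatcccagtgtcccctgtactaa
Rps12: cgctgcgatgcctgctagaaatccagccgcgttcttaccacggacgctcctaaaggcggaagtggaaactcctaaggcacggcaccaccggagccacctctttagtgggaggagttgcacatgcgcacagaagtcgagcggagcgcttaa
Rpl9: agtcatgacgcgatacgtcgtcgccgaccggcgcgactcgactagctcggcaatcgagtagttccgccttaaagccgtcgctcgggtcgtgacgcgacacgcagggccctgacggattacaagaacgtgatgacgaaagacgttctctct
Rps2: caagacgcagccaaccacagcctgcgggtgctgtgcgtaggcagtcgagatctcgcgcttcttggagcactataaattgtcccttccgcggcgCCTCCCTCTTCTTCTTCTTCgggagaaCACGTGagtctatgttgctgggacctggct
Rpl18: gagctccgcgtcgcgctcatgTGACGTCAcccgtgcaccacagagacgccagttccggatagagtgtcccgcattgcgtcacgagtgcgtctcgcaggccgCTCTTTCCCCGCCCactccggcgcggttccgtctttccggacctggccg

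The words in these 7 stretches differed. Rplp0 held 2 copies of CCAAT, and Rpl7a a copy each of GGGCGG and of TCGCGAGA, both on the other strand. Rpl23 held CACGTG and GGGCGG. In Rps2 an uninterrupted run of 20 pyrimidines lay across the start, and in Rpl18 a run of 10 pyrimidines lay downstream of the TGACGTCA word and overlapped a match to GGGCGG. Rps12 and Rpl9 held none of the 10 words in the searched window.

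Accessibility at a promoter was taken as the signal of the strongest deposited peak within 1000 bp of any annotated start of the gene, on the authors' depth-scaled signal scale. In 2 libraries of 150726 and 155536 peaks and 380111 and 379156 footprints, a promoter peak was present at 15056 protein-coding genes (68.7%) in replicate 1, at 14928 (68.1%) in replicate 2 and at 14611 (66.7%) in both. The numbers of reads are not in the files, so the depth behind each value is not known. As a check of the tissue, 7 of 7 cortical neuron marker genes had a promoter peak in both libraries, with medians of 3.23 and 2.91 and a range of means from Gad1 (1.65) to Syt1 (5.63), against 3 of 3 for astrocytes, 3 of 3 for the oligodendrocyte lineage, 2 of 3 for microglia, 2 of 3 for endothelium and 1 of 5 for other tissues. The cortex is a mixture of cell types, so a share of open cells and accessibility per cell cannot be told apart.

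All 76 ribosomal protein genes had a promoter peak in both libraries, against 66.7% of all protein-coding genes. Their median promoter signal was 6.64 in replicate 1 and 8.85 in replicate 2 (7.75 ± 1.57, SD, n = 2), against 3.47 and 3.91 over all genes with such a peak. The ratio of these medians was 1.91 in replicate 1 and 2.27 in replicate 2. In both libraries 67 members lay above the median of all genes with a peak, where 48.4% of the genes open in both did so, and 9 members lay below it in both. The highest 10% of genes by signal held 19 members in both libraries, against 8.03% of the genes open in both. Small and large subunit genes had medians of 7.22 and 6.57 in replicate 1 and of 9.54 and 8.68 in replicate 2, a difference smaller than that between the libraries. Within the family the mean signal ran from 2.04 to 14.9, with an interquartile range of 5.43 to 10.05.

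**Figure D1:**
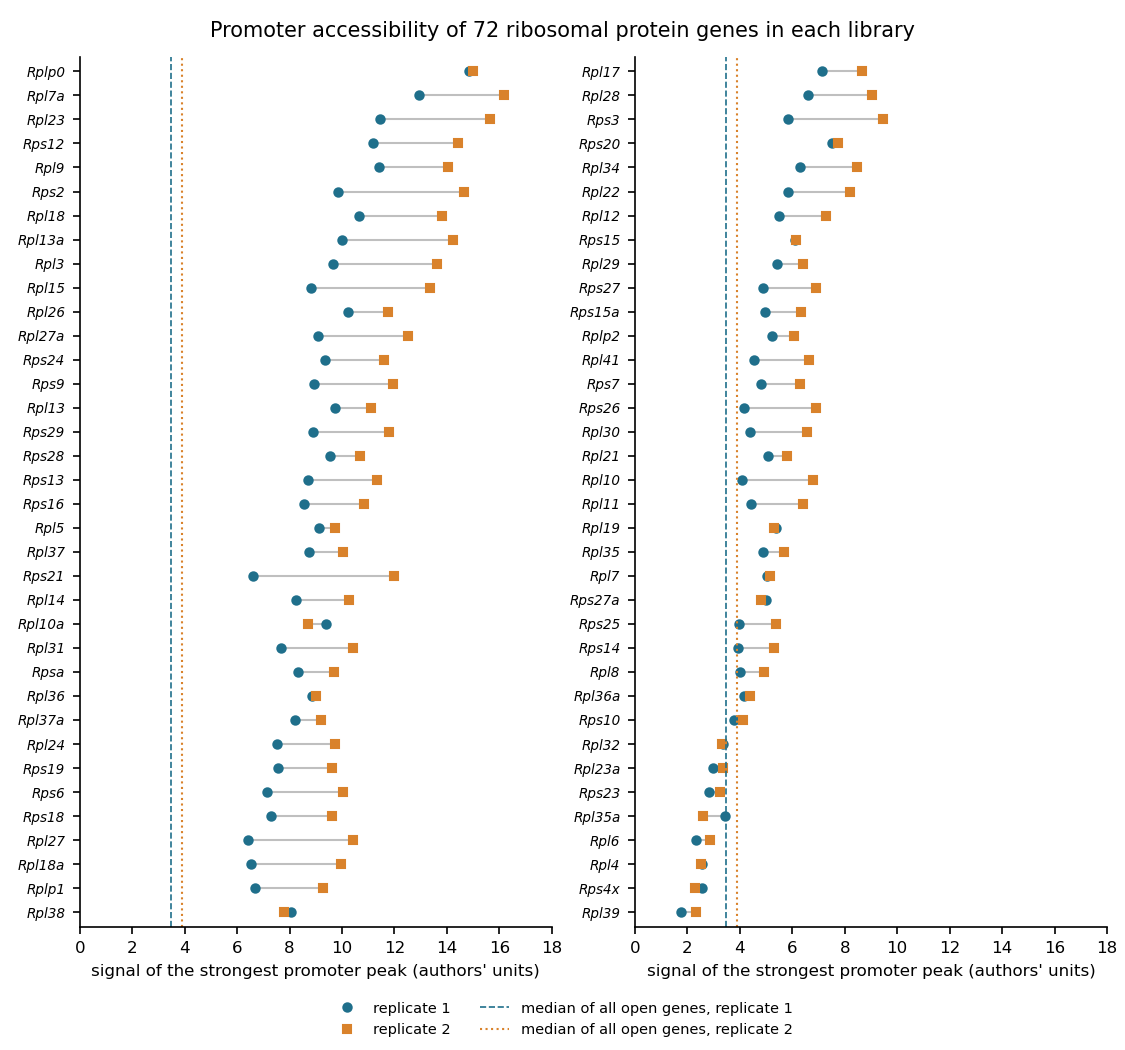
Signal of the strongest promoter peak (horizontal axis, the authors' units) of 72 of the 76 members, ordered by mean, with a circle for replicate 1 and a square for replicate 2. The lines mark the medians of all genes with a promoter peak, 3.47 (replicate 1, dashed) and 3.91 (replicate 2, dotted), and of all 76 members 67 lie above both medians.

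The stalk of the large subunit is formed by Rplp0, which anchors it, and the paired proteins Rplp1 and Rplp2, which bind elongation factors. Rplp0 had the highest mean signal of the family, 14.85 in replicate 1 and 14.98 in replicate 2 (14.9 ± 0.0923), with rank 46 in replicate 1 and rank 405 in replicate 2 among all genes with a promoter peak. Rplp1 had 6.67 and 9.26, and Rplp2 had 5.23 and 6.05. The ranges of the 3 stalk genes over the 2 libraries did not overlap.

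Among the other large subunit genes, Rpl7a had signals of 12.94 and 16.19 (14.6 ± 2.30), Rpl23 of 11.46 and 15.66 (13.6 ± 2.98), Rpl9 of 11.41 and 14.03 (12.7 ± 1.85) and Rpl18 of 10.66 and 13.81 (12.2 ± 2.23). Rpl3, which lies close to the peptidyl transferase centre, had 9.64 and 13.61. Rpl5 and Rpl11 enter the ribosome together in 1 particle and are known to bind Mdm2, the inhibitor of the tumour suppressor Trp53. Rpl5 had 9.13 and 9.75 and Rpl11 had 4.43 and 6.41, so the ranges of these partners did not overlap. Rpl24, a bridge to the small subunit, had 7.51 and 9.72, and Rpl38, known for its role in the translation of Hox messages, had 8.04 and 7.79. All of these lay above the median of all genes with a peak.

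Among small subunit genes high signals were those of Rps12 (11.18 and 14.43, 12.8 ± 2.30) and Rps2 (9.84 and 14.66, 12.3 ± 3.41). Their ranges over the 2 libraries overlapped, so their order is not resolved. Rpsa, also known as a laminin receptor, had 8.32 and 9.71. Rps6, the substrate of S6 kinase, had 7.14 and 10.02. Rps19, whose human counterpart is mutated in Diamond-Blackfan anaemia, had 7.55 and 9.63. Rps27a, made as a fusion with ubiquitin, had 4.98 and 4.79, and Rps14, whose human counterpart is lost in a deletion form of myelodysplastic syndrome, had 3.92 and 5.32. Both had means below the lower quartile of the family and values above the median of all genes with a peak.

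The 8 members with the lowest signals stayed below the median of all genes with a peak in both libraries. Rpl39 had 1.77 and 2.32, Rps4x 2.56 and 2.29, Rpl4 2.54 and 2.51 and Rpl6 2.33 and 2.87. Rpl35a had 3.44 and 2.57, Rps23 2.84 and 3.23, Rpl23a 2.98 and 3.34 and Rpl32 3.35 and 3.31. Each of these values lay below the lowest value of Rplp2, the weakest stalk gene. From Rpl39 to Rplp0 the mean signal of the family rose by a factor of 7.30.

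The 4 members on chromosome X, present in 1 copy in males, stood apart from the 72 autosomal members. Rpl10 had 4.09 and 6.77, Rpl36a 4.16 and 4.39, Rps4x 2.56 and 2.29, and Rpl39 1.77 and 2.32. Their median was 3.32 in replicate 1 and 3.35 in replicate 2, against 7.14 and 9.12 for autosomal members, a ratio of 0.465 and 0.368. Among all open genes, the medians on X were 1.58 and 2.05 and those on autosomes 3.59 and 4.03, a ratio of 0.439 and 0.508. These X-linked genes numbered 512 and 501, with the 4 members included.

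Most members were higher in replicate 2: 67 of 76, where 74.7% of the genes open in both libraries were. The median log2 ratio of replicate 2 to replicate 1 was 0.35 in members, with an SD over members of 0.25, and 0.22 over all genes open in both, with an SD of 0.33. Of 3902 other genes with mean signal in the members' interquartile range, 3452 were higher in replicate 2. Their median log2 ratio was 0.32, with an SD of 0.24, so the members did not stand apart from genes of like signal. The members farthest towards replicate 2 were Rps21 (6.61 and 11.98, log2 ratio 0.86), Rps26 (4.16 and 6.91) and Rpl10. Rpl35a and Rps4x were among the 3 farthest towards replicate 1. Rplp0 and Rpl32, at the 2 ends of the family, had log2 ratios of 0.01 and -0.02.

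Other genes of protein synthesis, from lists by symbol or name, gave a scale for these values. Of 4 cytosolic ribosomal proteins whose symbols fall outside the rule, all were open, among them Fau with 11.31 and 14.4, Rps3a1 with 10.44 and 10.15 and Rack1 with 3.47 and 4.34. A list of 15 genes held translation factors together with Npm1, Nap1l1, Hnrnpa1 and Tpt1, which are not translation factors. All 15 were open in both libraries, with medians of 8.52 and 9.41, led by Npm1 (11.46 and 15.23), which encodes the nucleolar protein nucleophosmin, and the factors Eif4b (10.78 and 14.77) and Eef1g (9.56 and 15.66). All 20 ribosome biogenesis genes were open, with medians of 4.94 and 5.99, led by Nop56 (12.8 and 13.04), a core protein of box C/D small nucleolar particles, Wdr12 (7.92 and 10.21) and Ncl (7.08 and 10.96), which encodes nucleolin. All 78 mitochondrial ribosomal protein genes were open with medians of 4.93 and 5.49, led by Mrpl17 at 15.46 and 17.05. Of 39 proteasome subunit genes 37 were open, with medians of 4.94 and 6.57, led by Psmb3 at 15.38 and 24.17; those without a peak were Psma8, a subunit of testis, and Psmb11, a subunit of the thymus. In both libraries the median of the 76 members lay below that of this mixed list of 15 and above those of the mitochondrial ribosomal, proteasome and biogenesis lists.

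The paralogs of ribosomal protein genes split by presence. Of 7 protein-coding paralogs outside the rule, 4 were open in both libraries, namely Rpl36al (11.54 and 12.35), Rpl22l1 (10.15 and 10.9), Rpl7l1 (4.25 and 4.45) and Rps27l (3.72 and 4.18). No promoter peak was found in either library at Rpl10l and Rpl39l, known as testis-expressed copies of X-linked members, or at Rpl3l, known from skeletal and cardiac muscle. Their widely expressed counterparts Rpl10, Rpl39 and Rpl3 were open in both libraries.

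**Figure D2:**
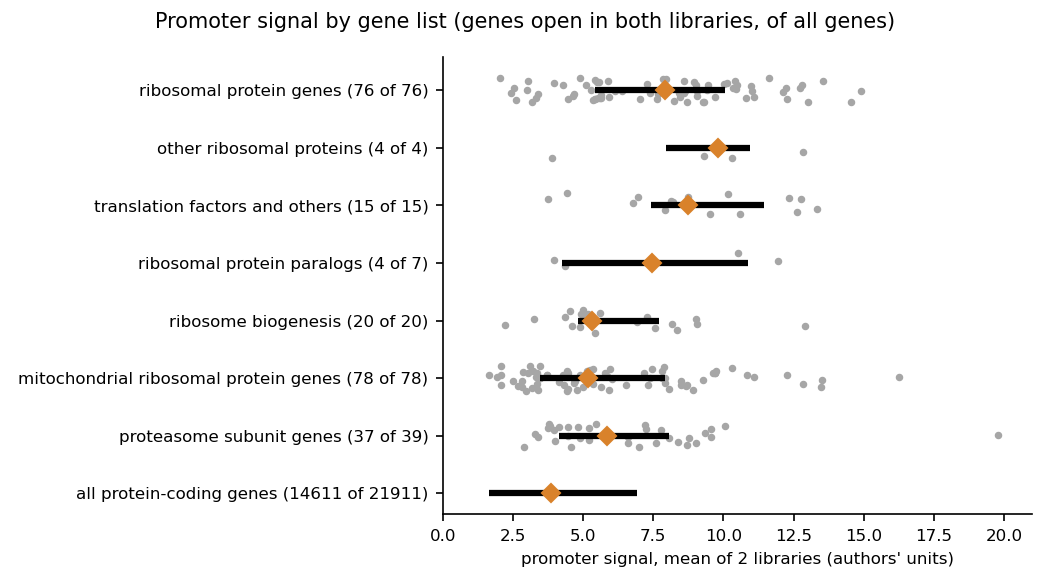
Mean promoter signal over the 2 libraries (horizontal axis, the authors' units) for genes open in both libraries in each list, with numbers open of all genes in parentheses. Grey points are genes, black bars interquartile ranges and diamonds medians; the median is 7.91 for the 76 members and 3.84 for all protein-coding genes.

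Most of the strongest peaks lay at the start. Their centre had a median distance of -27 bp from the principal start in replicate 1 and -30 bp in replicate 2, negative meaning upstream, and it lay within 100 bp of it in 59 of 76 members (77.6%) in each library. For other open genes this share was 50.3% in replicate 1 and 49.7% in replicate 2. It was 61.4% and 60.5% in 3902 other genes whose mean signal lay in the members' interquartile range. A peak covered the principal start in both libraries in 63 members, against 62.2% of the genes open in both. The strongest peak itself covered it in 62 members in each library (81.6%), against 55.3% and 53.5% of other genes. A strongest peak could lie near any annotated start, while distance and cover were taken from the principal start alone. A gene most open at another start thus counted as off the start, and numbers of starts per gene were not compared. Strongest peaks had a median width of 200 bp in replicate 1 and 220 bp in replicate 2. Their edges are coarse, since 64.7% and 66.6% of all peak starts lay on a 20 bp grid. By their centres, 36 strongest peaks of replicate 1 lay outside the annotated gene, 35 in an exon and 5 in an intron, and in replicate 2 the numbers were 39, 32 and 5.

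The strongest peaks of the 2 libraries overlapped in 75 of 76 members, against 94.1% of the genes open in both. The exception was Rpl39 (chrX:37082520-37085402, reverse strand), where 2 peaks of near-equal signal flanked the start. The downstream peak at +161.5 had 1.77 in replicate 1, and the upstream one had 1.51 there. In replicate 2 the upstream peak at -108.5 had 2.32 and the downstream one 2.30. Both libraries thus held both peaks, and only their order changed.

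A few members had their strongest peak well away from the annotated start. At Rps25 (chr9:44407139-44410427, forward strand) it was centred at +501.5 in both libraries, in an exon, with 3.96 and 5.36, above a peak nearer the start with 2.37 and 3.22. At Rpl35 it was centred at +443.5 and +433.5, also in an exon, and the other peaks within the window were below 1. At Rplp2, Rpl7 and Rps10 it lay in an exon at +230.5, +241.5 and +264.5 in replicate 1. At Rpl4 (chr9:64173375-64178666, forward strand) it lay upstream at -454.5 and -444.5, with 2.54 and 2.51, on the side of the divergent gene Zwilch, whose start is 271 bp away. A weaker peak near the Rpl4 start had 0.999 and 1.07. These members were picked out by position after their values were seen.

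**Figure D3:**
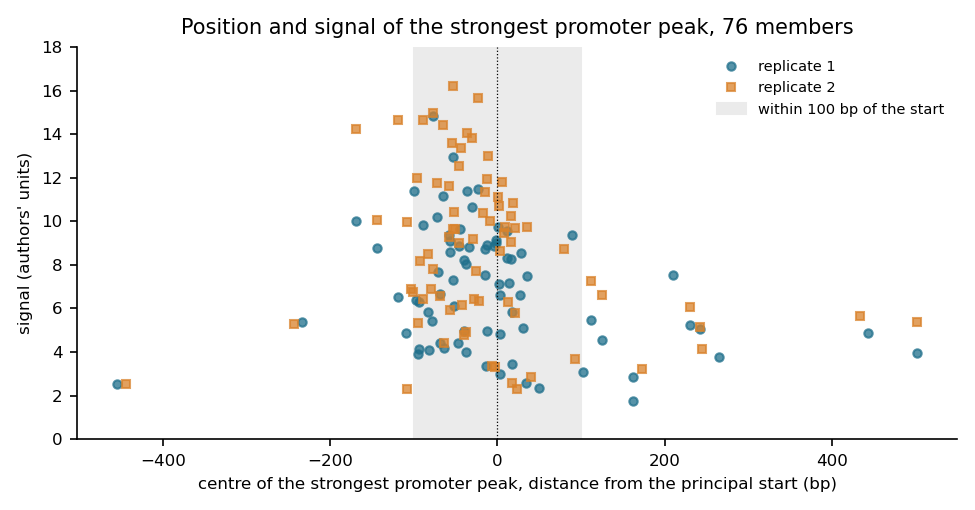
Distance of the centre of the strongest promoter peak from the principal start (horizontal axis, bp, negative upstream) against its signal (vertical axis, the authors' units) for the 76 members, circles for replicate 1 and squares for replicate 2. In each library 59 members lie within 100 bp of the start (grey band).

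Several promoters were shared with a neighbour. A protein-coding gene on the other strand started within 1 kb upstream of 12 members, against 8.97% of all protein-coding genes. In 14 members a start of another protein-coding gene lay within 1 kb of the strongest peak, a measure for which the share of all genes was not counted. The other start at Rps10 was that of RPS10-NUDT3, a gene model whose symbol includes Rps10, and so not of a separate neighbour. The pairs of highest signal were Rpl7a with Med22 at 87 bp, Rpl9 with Lias at 53 bp, Rpl18 with Sphk2 at 69 bp, Rpl15 with Nkiras1 at 69 bp and Rps28 with Ndufa7 at 10 bp. Rpl15 had 8.80 and 13.36 and Rps28 had 9.55 and 10.69, and the values of the other 3 are given above. Rps18 with Vps52, Rpl12 with Lrsam1 and Rps27 with Rab13 had 7.30 and 9.63, 5.47 and 7.28, and 4.87 and 6.90. A peak in such a promoter belongs to both genes and cannot be assigned to 1 of them.

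Footprints are short protected stretches inside accessible DNA, taken as deposited. The strongest promoter peaks of members held a median of 4.5 footprints in replicate 1 and 5 in replicate 2, with a range of 2 to 10 in each. Other genes had 4 and 4, and other genes of like signal 5 and 5. Within 1000 bp of the start, members had a median of 8 footprints in each library and other genes 7. By this count the members did not stand apart from promoters of like signal. Most footprints in the strongest peak were found at Rpl13a (10 and 8), Rps18 (10 and 7) and Rpl22 (9 and 6), and fewest at Rpl26 (2 and 2), Rpl23 (2 and 3) and Rpl32 (3 and 2), with Rpl38 (3 and 2) tied with the last pair. Rpl26 and Rpl23 were strong promoters with few footprints, and Rpl22 a middling one with many.

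Base by base, the share of members under a footprint reached its highest value of 42.1% at -71 in replicate 1 and at -16 in replicate 2. The highest share was 25.95% and 26.3% over other genes and 35.9% and 37.1% over genes of like signal. With 76 members, 1 member is a step of 1.32%, so the profile of members is rough and single maxima are not resolved. Averaged from 20 bp before to 20 bp after the start, the shares were 33.3% and 33.6% in members and 31.9% and 33.3% at like signal. Between 100 and 200 bp downstream members had 11.3% and 11.0%, genes of like signal 7.80% and 7.12%, and other genes 6.14% and 5.39%. Between 200 and 300 bp upstream members had 7.86% and 6.78%, genes of like signal 10.4% and 10.7%, and other genes 7.13% and 7.23%. Compared with the genes of like signal, footprint coverage at members was thus higher downstream and lower far upstream of the start in both libraries. Those genes span only the members' interquartile range of signal, while the member profile takes in all 76. Strongest peaks were centred within 100 bp downstream in 23.7% of members in each library, against 10.6% and 10.3% at like signal. Whether the difference in footprint coverage follows peak position was not tested.

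**Figure D4:**
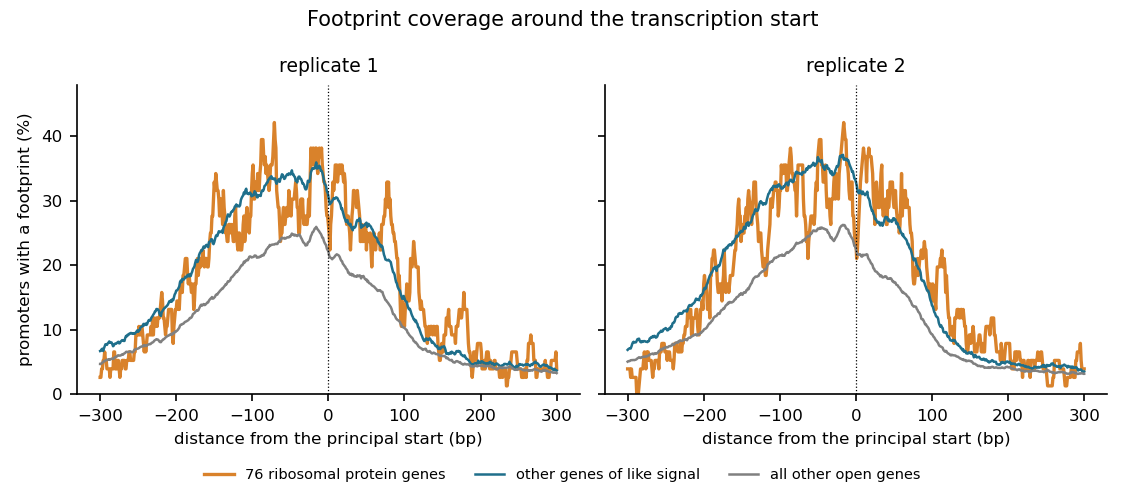
Share of promoters with a deposited footprint (vertical axis, %) at each base from 300 bp before to 300 bp after the principal start (horizontal axis, bp), for the 76 members (orange), other genes of like signal (blue) and all other open genes (grey), in each library. Between 100 and 200 bp downstream members average 11.3% and 11.0%, against 7.80% and 7.12% at like signal.

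The accessible region was also wider than average. Within 1 kb of the principal start, intervals with a deposited false discovery rate of up to 0.05 covered a median of 1013 bp in replicate 1 and 880.5 bp in replicate 2 in members. Over all open genes the medians were 892 and 806.5 bp, and at like signal 1069 and 992 bp. Members were thus wider than open genes as a whole and narrower than genes of like signal in both libraries.

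The promoter sequences, from 250 bp before to the 50th base after the start, were searched on both strands for 10 words. These were CCGGAAG (ETS/GABP), AANATGGC (YY1), GGGCGG (SP/KLF), CGCATGCGC (NRF1), CCAAT (NF-Y), TGACGTCA (CRE), CACGTG (E-box), TCGCGAGA (the palindrome), TTTGGCGC (E2F) and ACTACAA (ZNF143). The factor names serve as labels for the words, and a match is not evidence of binding. Palindrome is a label too, since TCGCGAGA alone is not one and only its joined form of 10 bases, TCTCGCGAGA, reads the same on both strands. The palindrome was held by 12 members (15.8%), against 1.36% of all protein-coding promoters and 1.90% of those open in both libraries. The ETS word was held by 26 members (34.2%), against 11.2% and 15.5%. ZNF143 was at 11.8% against 3.82% and 3.98%, YY1 at 13.2% against 6.47% and 7.73%, CRE at 7.89% against 2.46% and 3.19%, and the E-box at 13.2% against 7.74% and 9.57%. SP/KLF, at 53.9% of members, lay between 45.2% of all promoters and 60.9% of open ones, and NF-Y at 30.3% lay below both (38.5% and 37.4%). The NRF1 word was found in 1 member (1.32%, against 2.51% and 3.14%), and the E2F word in 0 members, against 0.707% and 0.965%. No word was found in 11 members (14.5%), against 25.03% and 16.04%.

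**Figure D5:**
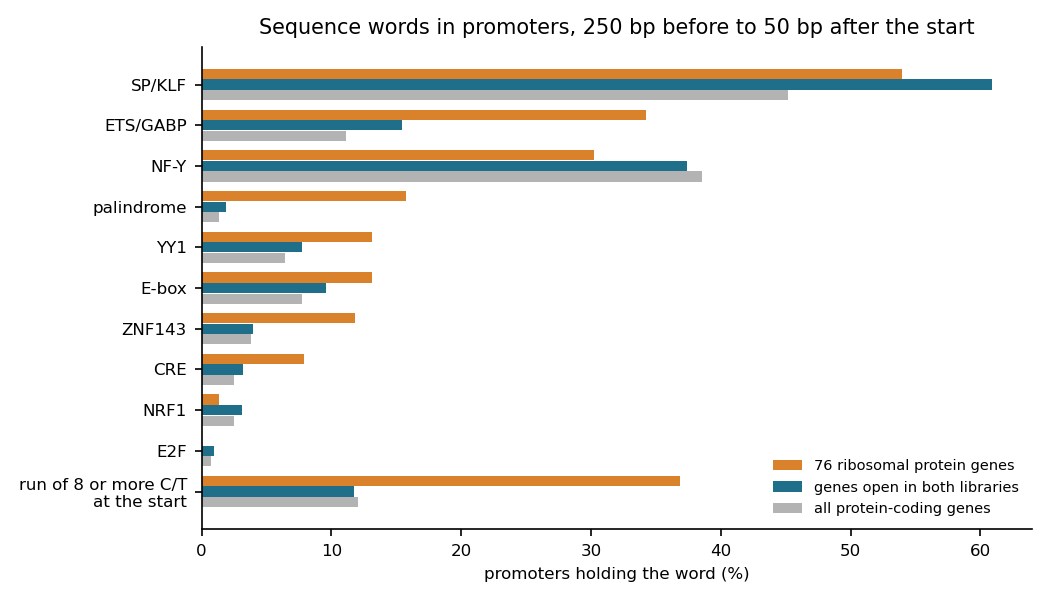
Share of promoters (horizontal axis, %) holding each word from 250 bp before to 50 bp after the start, or a run of 8 or more pyrimidines within 15 bp of the start, for the 76 members, genes open in both libraries and all protein-coding genes. The palindrome stands at 15.8% in members and 1.36% in all genes, and the pyrimidine run at 36.8% and 12.02%.

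The words were spread over both subunits. The palindrome was held by 6 large and 6 small subunit genes and the ETS word by 15 and 11. The 6 members with the CRE word, Rpl18, Rpl26, Rpl27a, Rps9, Rpl13 and Rps29, had mean signals from 10.3 to 12.2, all above the upper quartile of 10.05. Their medians were 9.40 and 11.9, against 6.47 and 8.34 in the 70 members without the word. The 9 members with the ZNF143 word had lower medians, 4.54 and 6.05, against 7.15 and 9.19 in the 67 without. The 23 members with the NF-Y word had medians of 8.756 and 10.26, against 6.099 and 7.733 in the 53 without. The 10 members with the YY1 word had 4.911 and 6.833, against 7.144 and 9.115 in the 66 without. Members with and without the ETS word had medians of 6.64 and 6.88 in replicate 1 and of 8.87 and 8.85 in replicate 2. For the palindrome the medians were 8.067 and 9.825 with the word and 6.469 and 8.599 without. For the E-box they were 7.892 and 9.373 with it and 6.609 and 8.854 without. With SP/KLF they were 7.553 and 8.716, against 6.099 and 8.993 without, so the direction differed between the libraries. These splits were not tested, and several rest on few members. For each word held by more than 1 member, the ranges of members with and without it overlapped.

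The palindrome sites of 9 members are shown with 12 bases on each side, because this word had the largest ratio between members and all promoters. Capitals mark the word or, where it occurs on both strands with an overlap, the joined stretch of 10 bases, which 6 of the 12 sites had. The sites shown are Rpl23a at chr11:78183595-78183626, Rpl26 at chr11:68901528-68901561, Rpl27a at chr7:109519162-109519193, Rpl4 at chr9:64173120-64173153, Rpl7a at chr2:26910743-26910774, Rps15a at chr7:118116194-118116225, Rps19 at chr7:24884138-24884169, Rps28 at chr17:33824542-33824575, Rps6 at chr4:86857397-86857430, and each sequence reads 5' to 3' along its gene.
Rpl23a: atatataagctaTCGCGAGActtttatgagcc
Rpl26: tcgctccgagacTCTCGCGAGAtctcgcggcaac
Rpl27a: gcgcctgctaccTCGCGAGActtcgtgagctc
Rpl4: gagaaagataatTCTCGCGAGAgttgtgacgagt
Rpl7a: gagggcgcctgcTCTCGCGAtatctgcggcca
Rps15a: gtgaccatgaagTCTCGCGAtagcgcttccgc
Rps19: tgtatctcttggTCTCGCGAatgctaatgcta
Rps28: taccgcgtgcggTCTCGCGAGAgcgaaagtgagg
Rps6: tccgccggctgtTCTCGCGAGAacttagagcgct

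Of the 12 sites, 6 lay wholly inside a footprint in both libraries, 1 in replicate 2 only and 5 in neither. Those in a footprint in both included Rpl17, Rpl26, Rpl7a, Rps15a and Rps6, and that of Rpl23a was in a footprint in replicate 2. With the start base counted as 0, these named sites began between -43 at Rpl26 and -6 at Rps6 and Rpl17. The sites farthest from the start, at -243 in Rpl4 and -221 in Rps19, were in no footprint, nor were that at +27 in Rpl27a and that over the start of Rps28, from -1 to +8. At Rpl4 the palindrome lay between its start and that of Zwilch, outside the strongest peak. Counted as matches on either strand, 55.6% and 61.1% of this word in members lay in a footprint, against 37.5% and 45.3% in other open genes. With footprints extended by 5 bp the shares were closer, 66.7% and 72.2% against 63.5% and 66.1%.

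At Rpl7a the palindrome was protected as part of 1 long footprint from -34 to +6 in replicate 1, and from -35 to +7 in replicate 2. At Rplp0 both CCAAT words lay in footprints in both libraries, the distal one in a footprint from -108 to -69 with the same edges in each. A further footprint of Rplp0, from +9 to +38 in replicate 1 and to +40 in replicate 2, held the letters tataaaa downstream of the annotated start. These 3 footprints of replicate 1 read as follows, with word matches in capitals.
Rpl7a footprint: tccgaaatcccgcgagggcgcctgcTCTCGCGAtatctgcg
Rplp0 distal footprint: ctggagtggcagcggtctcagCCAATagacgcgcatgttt
Rplp0 downstream footprint: ggttctcctataaaaggcacacgcgggcat

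Over all words in the promoter window, 36.6% of 186 matches in members lay inside a footprint in replicate 1 and 38.7% in replicate 2, against 30.9% and 33.0% in other open genes. With footprints extended by 5 bp on each side the shares were 56.5% and 54.8%, against 48.4% and 49.4%. Pooled over the words, members were thus slightly above other open genes in each library and setting. Single words did not all go this way, and genes of like signal were not compared. A site matched on both strands counted more than once, so the palindrome gave 18 matches at its 12 sites.

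The annotated start sequence differed from that of other genes. A run of 8 or more pyrimidines within 15 bp of the start was found in 28 members (36.8%), against 12.02% of all protein-coding genes, and a run of 10 or more in 18 (23.7%), against 5.43%. The longest was the run of 20 at Rps2. The first base was C in 24 members (31.6%), against 17.6%. In a wider window, from 50 bp before to 100 bp after the start, chosen after the sequences were seen, 64 members (84.2%) held a run of 8 or more, against 47.2% of all genes. A TATAA word 20 to 40 bp before the start was found in 3 members (3.95%), against 3.97% of all genes and 1.85% of those open in both. Within 60 bp on either side it was found in 10 members (13.2%), against 8.43% and 4.28%. Promoters of members held a median of 21 CpG dinucleotides, against 12 over all genes and 19 over open ones, at a GC content of 56.2%, 55.7% and 60.3%.

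Outside their promoters the gene bodies held few peaks. A gene body peak outside all promoter windows was present in both libraries in 7 members, Rpl11, Rpl22, Rpl26, Rpl3, Rpl32, Rps14 and Rps15a, against 46.8% of all protein-coding genes. The members are short, with a median length of 3266 bp against 17430 bp, and among genes within their length range of 828 to 31449 bp the share was 28.3%. The upper end of that range is the length of Rps14 alone, so these genes were not matched to the members for length. Most body peaks were weak, such as those of Rpl11 at 0.488 and 0.399 and of Rps15a at 0.502 and 0.633. Rpl26 had an intronic one at 3.19 and 2.70 and Rps14 one upstream of its principal start at 3.47 and 3.59, inside a longer gene model.

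The strongest body peak was that of Rpl3 (chr15:80077791-80091868, reverse strand). It lay in an intron of a longer annotated transcript, centred at -5424.5 bp from the principal start and away from other protein-coding starts. Its signal was 7.89 in replicate 1 and 8.61 in replicate 2 at chr15:80088761-80088900 in each, below the 9.64 and 13.61 of the promoter itself. It held 2 footprints in each library, and its 140 bases are shown along the strand of the gene, with the 76 bases in footprints of both libraries in capitals.
Rpl3 intronic peak: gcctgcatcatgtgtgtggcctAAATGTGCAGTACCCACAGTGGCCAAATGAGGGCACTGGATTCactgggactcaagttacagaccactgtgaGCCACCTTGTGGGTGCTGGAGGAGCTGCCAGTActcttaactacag

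Copies elsewhere in the genome bear on how reads map to these genes. The strongest promoter peaks were largely of single-copy sequence: a median of 1.40% of their 31-base words in replicate 1 and 1.12% in replicate 2 occurred more than once in the genome, and 30 and 35 members had none. More than 5% of the words were repeated in 23 members in replicate 1 and in 25 in replicate 2. Among the members of lowest signal, Rpl6 had 16.7% and 14.7% and Rpl35a 14% in each library, while Rpl4 and Rps4x had none. The largest share was 32.9%, at Rpl29 in replicate 1. The weak body peak of Rpl32 was another matter, with 52.7% and 87.7% of its words present elsewhere. Whether such copies changed the signal of this or of any promoter peak was not tested.

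Of 294 ribosomal protein pseudogenes named as copies of these genes, 16 (5.44%) had a peak within 1 kb in both libraries, and 3 of them a peak over the copy itself. Away from protein-coding starts 12 of 282 (4.26%) did. The parent genes were open in 76 of 76 cases. How reads of repeated sequence were handled is not known, and repeated words were not counted in the pseudogenes. A missing peak at a pseudogene therefore does not show that its DNA was closed. Small nucleolar RNAs were hosted by 29 members, 56 in all, among them Rpl4 with 5, Rpl13a with 4 and Rpl7a with 3. The share of all protein-coding genes that host such RNAs is not given here. The promoter signal of the member hosts ran from 1.77 and 2.32 at Rpl39 to 12.94 and 16.19 at Rpl7a, while Rplp0, the highest member, hosted none.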

How the data were processed

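DNase-seq files of both libraries of the single group were used. In the peak lists the signal per peak is the authors' value, deposited on mm10, as is each peak's extent; the larger list of each library was used. The deposited false discovery rate file gives a q-value (adjusted p-value) per interval, per the file headers. The score column of the deposited footprints held 0.01 throughout, so only positions were used. The authors made the files for each library separately. For aligner, peak caller and footprint caller, the name and version were not given in the sources used here. Genes were those of GENCODE M21, 1 entry per symbol on 21 chromosomes. The principal start was that of the best supported protein-coding transcript. Overlap meant 1 bp or more. Words and 31-base copies were searched in GRCm38. Python 3.11.15, NumPy 2.4.6 and matplotlib 3.10.9 were used, and the functions were tested on simulated peaks.

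Named members were the 8 highest and 8 lowest by mean signal, the 3 farthest between libraries in each direction, those with most and fewest footprints, X-linked and shared promoters, most body peaks, and members chosen by role. Members and lists were chosen with earlier results of these data known. No tests were made, since 1 group offers no comparison. The alternatives were the stricter peak list, promoter windows of 500 and 2500 bp, the principal start alone, each library alone, and other footprint, overlap and word settings. Some genes are not reported here by name and stay in the counts and medians.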

Additional observations from a re-analysis of the deposited data

How the results depend on the processing

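The presence of a promoter peak in both libraries held for 76 members under each of 4 alternatives of peak list, window and start, and in each library alone. The median signal, its ratio to all genes and the position of the peaks moved by no more than 1 SD over the libraries in any alternative. Each of 2 libraries always lies within 1 SD of their mean, so for the single libraries this outcome was fixed in advance. The median log2 ratio between libraries fell from 0.35 to 0.12 when centred on all genes. Members with a gene body peak in both libraries, 7 as reported, were 4 with the stricter peak list and 12 with a window of 500 bp, and 8 to 11 in 1 library alone. The median footprints of the strongest peak, 4.75 over the libraries, were 4 when wholly inside it and 8 over the whole promoter window. The share of words in a footprint rose from 37.6% to 55.7% with footprints extended by 5 bp. With 150 bp on each side of the start, the NRF1 word was found in 3 members (3.95%, above the 2.07% of all promoters) in place of 1 (below them), and the other words stayed within 1.5 times their number. After the sequences were seen, wider windows gave 64 in place of 28 members with a pyrimidine run and 10 in place of 3 with TATAA (13.2%, above the 8.43% of all genes, in place of 3.95% against 3.97%). No paired analysis was possible because there is 1 group. Read depth is not in the files, so counting error could not be given, and 2 libraries cannot resolve the order of members with overlapping ranges.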
